A study of Mus musculus with 6 samples.

Results

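The heat-shock chaperones examined here are 10 genes of the HSP110, HSP90, HSP70, HSP60, HSP40, HSP10 and small heat-shock protein families: Hspa1a, Hspa1b, Hspb1, Hsph1, Dnajb1, Hsp90aa1, Hsp90ab1, Hspa8, Hspd1 and Hspe1. Their probe sets were chosen by gene symbol in the platform's annotation. The genes themselves were selected on earlier knockout against wild-type values of these same arrays, so every difference of a member between the genotypes is given as a description, with no test. Of the 10 genes, 9 had probe sets of their own, 22 in all, out of 45037 probe sets and 18193 genes measured; Hsp90ab1 was not analysed here. For the contrast, 6 of the 9 were grouped as inducible (Hspa1a, Hspa1b, Hspb1, Hsph1, Dnajb1 and Hsp90aa1, with 15 probe sets) and 3 as constitutive (Hspa8, Hspd1 and Hspe1, with 7 probe sets). The grouping is a convention, and the constitutive label does not mean that heat cannot induce a gene.

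The 6 samples were 3 cultures of E-FABP knockout macrophages and 3 of wild-type macrophages, called biological replicates without a statement that each came from its own mouse, so SEs and p-values speak of these samples. E-FABP is the epidermal fatty-acid-binding protein, a cytosolic lipid carrier encoded by Fabp5. Marrow came from naive mice of 6 to 8 weeks, all labelled with the strain C57BL/6, and was cultured in GM-CSF (20 ng/ml) over 7 days. Both genotypes then shared a well for 18 h with E0771 mouse breast tumour cells, which sat in a culture insert, so no sample shows chaperone levels without tumour cells. How the knockout allele was built was not stated in the labels, and GM-CSF cultures of marrow hold dendritic-type cells and granulocytes beside macrophages.

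Heat-shock chaperones bind unfolded protein, prevent its aggregation and return it to its native fold or hand it to degradation. HSP70 proteins cycle on clients under the control of J-domain proteins (HSP40), which start ATP hydrolysis, and of exchange factors such as HSP110, which release ADP. Inducible members are switched on by the transcription factor HSF1, which binds inverted repeats of a short GAA unit, the heat-shock element, when proteins misfold; constitutive members serve folding in unstressed cells. In macrophages, these chaperones are known to respond to fever-range heat, oxidants and other inflammatory stress.

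The upstream sequences of Hspa1a and Hspa1b, the members with the largest differences, are shown first, with those of Hspb1 and Hspe1 beside them. The sequences are from RefSeq's GRCm38.p6 promoter windows of 250 bases before and 50 after a gene's start, which matched 7 of the 10 genes with 10 windows. Capitals mark each match to 2 or more adjoining heat-shock units, searched as GAANNTTC and TTCNNGAA for a pair and as GAANNTTCNNGAA and TTCNNGAANNTTC for a triple. The pairs read the same on both strands, the triples are each other's reverse complement, and a triple contains pairs. Hspa1a (chr17:34972157-34972406, minus strand) and Hspa1b (chr17:34959239-34959488, minus strand) are shown over the 250 bases before their starts, and Hspb1 (chr5:135887777-135887854, plus strand) and Hspe1 (chr1:55088053-55088082, plus strand) over the stretch around their matches.
Hspa1a: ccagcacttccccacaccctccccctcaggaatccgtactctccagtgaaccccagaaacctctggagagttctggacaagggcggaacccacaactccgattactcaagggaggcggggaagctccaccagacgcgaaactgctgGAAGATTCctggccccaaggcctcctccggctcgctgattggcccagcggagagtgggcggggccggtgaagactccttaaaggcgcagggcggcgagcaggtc
Hspa1b: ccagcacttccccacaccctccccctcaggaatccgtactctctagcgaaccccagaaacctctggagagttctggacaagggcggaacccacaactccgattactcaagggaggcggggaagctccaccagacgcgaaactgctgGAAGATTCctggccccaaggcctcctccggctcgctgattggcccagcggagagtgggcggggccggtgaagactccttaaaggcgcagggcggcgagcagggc
Hspb1: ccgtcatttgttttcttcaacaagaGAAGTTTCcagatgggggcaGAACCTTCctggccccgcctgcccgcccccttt
Hspe1: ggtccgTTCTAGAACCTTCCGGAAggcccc

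The Hspa1a and Hspa1b stretches were 98.8% identical over 250 bases compared without gaps. They differed by 3 substitutions, C44T, T47C and T249G, with Hspa1a's base first and positions counted from 1 at the 5′ end of the stretch. Both held the same single pair and no triple in the 300-base window. Hspb1 held 2 separate pairs and no triple. Hspe1 held overlapping triples of both orders, and 285 bases of its window are shared with a window of Hspd1, the neighbouring gene read from the other strand. Hsph1 had a triple too, but past its annotated start. Dnajb1 had none of these letters in either of its windows, which says nothing about HSF1 elsewhere in the gene. Among all 32851 windows, 15.1% held a pair and 0.603% a triple. The windows with triples were those of Hspd1, Hspe1 and Hsph1, while Hspa1a, Hspa1b and Hspb1 had pairs only. A search for exact letters misses imperfect units, and Hspa8 and Hsp90aa1 had no window. Whether HSF1 acts on any of these genes here was not tested.

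Hspa1a and Hspa1b, which encode the main stress-induced HSP70 of the cytosol, were lower in every knockout array than in any wild-type array, which held for 11.1% of all probe sets. The Hspa1a probe set (1452388_at) read 8.16, 8.07 and 8.60 (log2 intensity) in knockout replicates 1, 2 and 3, against 9.77, 9.44 and 9.24 in wild-type replicates 1, 2 and 3. The means were 8.28 ± 0.29 in knockout and 9.49 ± 0.27 in wild type (SD, n = 3 each), a difference of -1.21 on the log2 scale (SE 0.16), or 2.31-fold lower. The highest knockout array, replicate 3, lay 0.640 below the lowest wild-type array, also a replicate 3, and the spread inside each genotype was about the same (0.537 in knockout, 0.527 in wild type).

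All 3 Hspa1b probe sets showed the pattern. The brightest (1452318_a_at) read 9.86, 9.66 and 10.02 in knockout, against 11.34, 11.12 and 10.89 in wild type, a difference of -1.27 (SE 0.13) or 2.41-fold. The 1427127_x_at set read 8.48, 8.33 and 8.69 in knockout, against 10.09, 9.80 and 9.58 in wild type (-1.32, SE 0.14). In each of these sets replicate 2 was the lowest knockout array and replicate 3 the lowest wild-type array. The 1427126_at set read 8.24, 7.94 and 8.53 in knockout, against 9.86, 9.63 and 9.30 in wild type (-1.36, SE 0.17, 2.56-fold). No more than 102 of the 45037 probe sets had a difference as low as that of any of these 4. Since the members were selected on this difference, nothing is read from that rank. The coding sequences of Hspa1a and Hspa1b are known to be nearly identical, so their probes may bind both transcripts (not tested), a change of 1 gene could appear in both, and the 4 probe sets are not 4 independent readings. On the log2 scale the Hspa1a to Hspa1b difference within an array moved by only 0.06 between genotypes.

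Hspb1, the small heat-shock protein HSP27 that holds unfolded clients without ATP and stabilises actin, was also lower in knockout, by less. Its brighter probe set (1422943_a_at) read 7.36, 7.24 and 7.59 in knockout, against 8.18, 7.94 and 8.02 in wild type, a difference of -0.65 (SE 0.10) or 1.57-fold. The other set (1425964_x_at) read 7.39, 6.89 and 7.49 in knockout, against 8.10, 7.85 and 8.05 in wild type (-0.75, SE 0.15). Knockout replicate 2 was again the lowest array and the genotypes did not overlap in either set, as in the 11.1% of all probe sets given above. Within arrays, the log2 ratio of Hspa1b to Hspb1 differed by -0.62 between knockout and wild type.

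**Figure D1:**
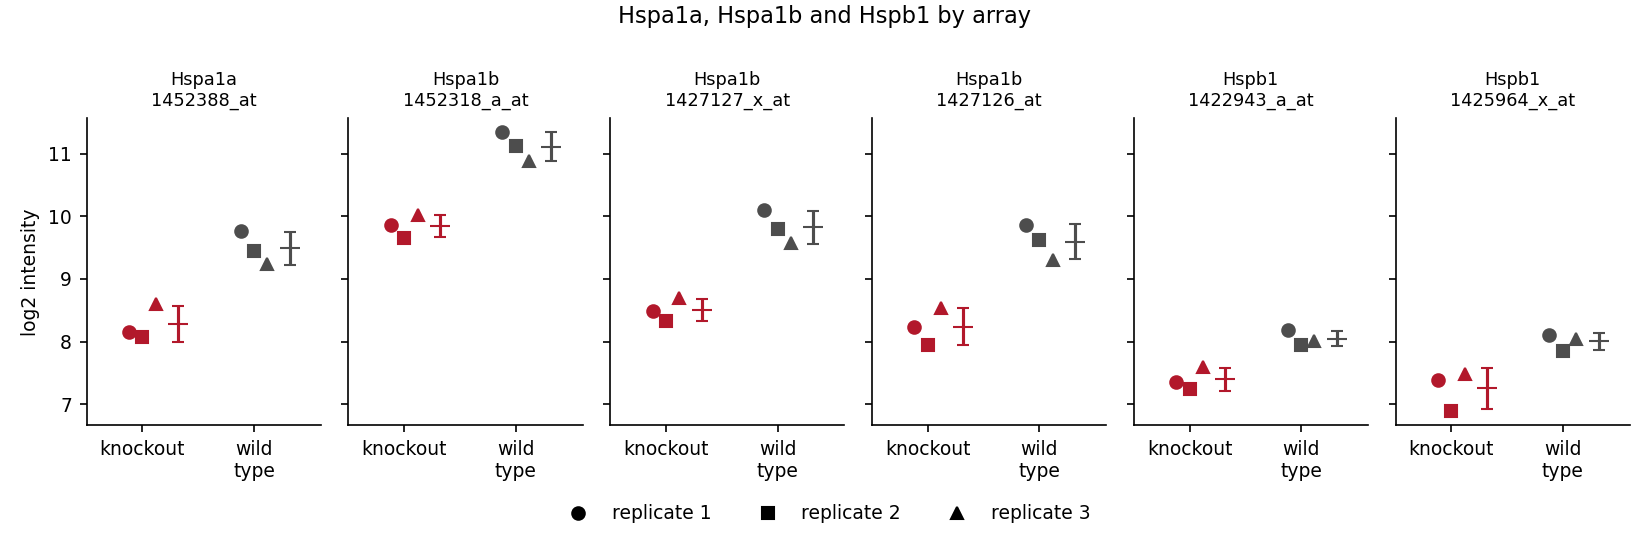
Log2 intensity (y axis) of the 6 probe sets of Hspa1a, Hspa1b and Hspb1 on 3 knockout arrays (red) and 3 wild-type arrays (grey); point shapes are replicate numbers and bars are the mean ± SD. In each panel the knockout points lie below the wild-type points, with gaps between the nearest arrays of 0.345 to 0.882.

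The other 3 inducible genes had smaller differences. Hsph1, the HSP110 exchange factor for HSP70, read 10.19, 10.21 and 10.27 in knockout, against 10.47, 10.25 and 10.34 in wild type, in its brighter set (-0.13, SE 0.08). Its second set differed by -0.13 (SE 0.09), and in both sets the genotypes overlapped. Dnajb1, the HSP40 partner that is induced with HSP70 in heat-shocked cells, read 9.49, 9.59 and 9.63 in knockout, against 9.60, 9.64 and 9.61 in wild type (-0.05, SE 0.07). Its second set differed by -0.02 (SE 0.08), with a sign that turned positive when an array was left out. Within arrays, the log2 ratio of Hspa1b to Dnajb1 differed by -1.22 (knockout minus wild type) and that of Hspa1b to Hsph1 by -1.14, so the inducible HSP70 reading was lower relative to both of these co-chaperones.

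Hsp90aa1, the stress-inducible form of cytosolic HSP90, which matures kinases and hormone receptors, lay between -0.04 and 0.12 in 5 probe sets, and the genotypes overlapped in all 5. Its brightest set (1438902_a_at) read 13.28, 13.23 and 13.30 in knockout, against 13.29, 13.26 and 13.25 in wild type, a difference of 0.00 (SE 0.06) that was -0.03 after quantile normalization. The 1426645_at set read 12.34, 12.36 and 12.18 in knockout, against 12.09, 12.23 and 12.21 in wild type (0.12, SE 0.08). Knockout replicate 3 was the lowest knockout array in this set and in 1437497_a_at, where it read 11.63 while the other 2 read 12.01 and 12.04. The 1441827_x_at set lay under 5.63, the median of all values, and the 1433251_at set read 5.73 to 5.81, close to it. Both can say little of the gene. Over the 6 inducible genes, with the brightest probe set for each, the median difference was -0.39, beside 0.01 over all 18193 genes. Hspa1a, Hspa1b and Hspb1 (-0.65) lay below -0.39, and Hsph1 (-0.13), Dnajb1 and Hsp90aa1 above it. Hspa1a and Hspa1b count as 2 genes in this median, though their probes may bind both transcripts. A median with the 2 counted once was not computed.

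Hspa8, the constitutive HSC70 that folds new proteins, uncoats clathrin vesicles and drives chaperone-mediated autophagy, lay between -0.06 and -0.02 from wild type in its 4 probe sets. Its brightest set (1455789_x_at) read 13.68, 13.68 and 13.71 in knockout, against 13.71, 13.69 and 13.72 in wild type, a difference of -0.02 (SE 0.06). The 1431182_at set read 7.55, 7.56 and 7.74 in knockout, against 7.83, 7.47 and 7.65 in wild type (-0.03, SE 0.10), and the remaining sets differed by -0.06 and -0.04. All 4 Hspa8 sets overlapped between genotypes. Within arrays, the log2 ratio of inducible to constitutive HSP70 (Hspa1b to Hspa8) differed by -1.25 (knockout minus wild type), and that of Hspa1a to Hspa8 by -1.20.

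Hspd1 and Hspe1, the HSP60 and HSP10 subunits of the mitochondrial folding chamber, ran the other way from Hspa1a and Hspa1b. Hspd1 read 11.44, 11.39 and 11.33 in knockout, against 11.17, 10.94 and 11.20 in wild type, a difference of 0.28 (SE 0.08) or 1.21-fold. Hspe1 read 11.58, 11.48 and 11.54 in knockout, against 11.36, 11.26 and 11.44 in wild type, in its brighter set (0.18, SE 0.07). Every knockout array thus lay above every wild-type array, by as little as 0.04 in that Hspe1 set; groups that do not overlap, higher in knockout, were found in 15.8% of all probe sets. The other Hspe1 set gave 9.52, 9.50 and 9.49 in knockout, against 9.40, 9.28 and 9.41 in wild type (0.14, SE 0.07). The 2 genes share the upstream stretch printed above, and their log2 ratio differed by 0.10 between genotypes.

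**Figure D2:**
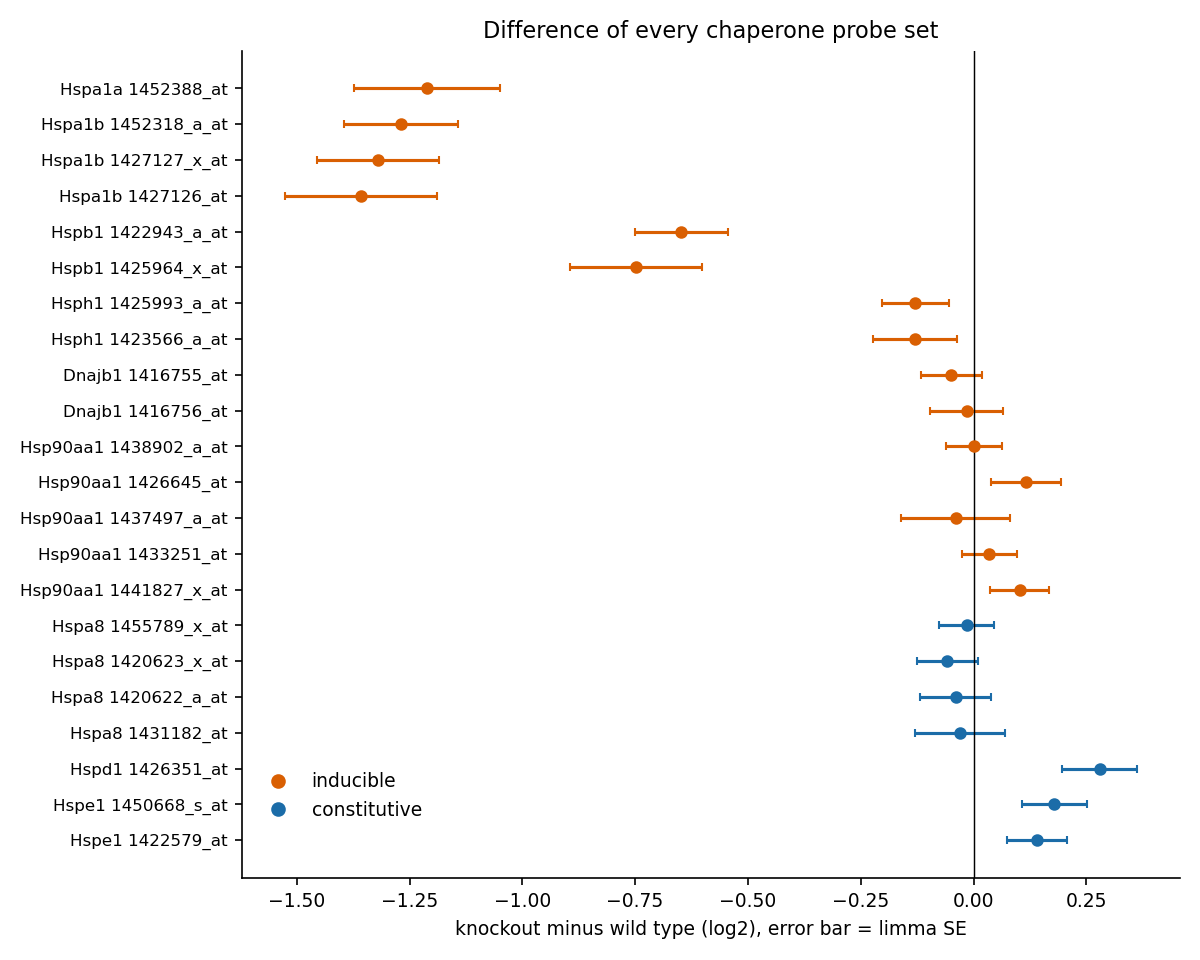
Knockout minus wild type (log2, x axis) for each of the 22 probe sets, with limma's SE as error bar, inducible genes in orange and constitutive genes in blue. The 6 sets of Hspa1a, Hspa1b and Hspb1 lie between -1.36 and -0.65, the other 9 inducible sets between -0.13 and 0.12, and the 3 sets of Hspd1 and Hspe1 between 0.14 and 0.28.

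By array, the median deviation of the 6 inducible genes from their own means was -0.23, -0.28 and -0.07 (log2) in knockout replicates 1, 2 and 3, against 0.32, 0.13 and 0.17 in wild-type replicates 1, 2 and 3. That of the 3 constitutive genes was 0.14, 0.04 and 0.08 in knockout, against -0.07, -0.19 and -0.00 in wild type. Of these 3, Hspd1 and Hspe1 are the mitochondrial pair, so the median follows them and not Hspa8. The Hspa8 differences lay between -0.06 and -0.02. The inducible minus constitutive value was -0.28 ± 0.11 in knockout and 0.29 ± 0.11 in wild type (SD, n = 3 each), a difference of -0.58. In this value too, Hspa1a and Hspa1b count as 2 genes, though their probes may bind both transcripts. Among the constitutive genes, Hspd1 and Hspe1 held triples, so this value does not set genes with heat-shock elements against genes without them. Knockout replicate 3 and wild-type replicate 3 came nearest to each other, at -0.16 and 0.17. Leaving out any 1 array kept the difference of -0.58 between -0.64 and -0.52.

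**Figure D3:**
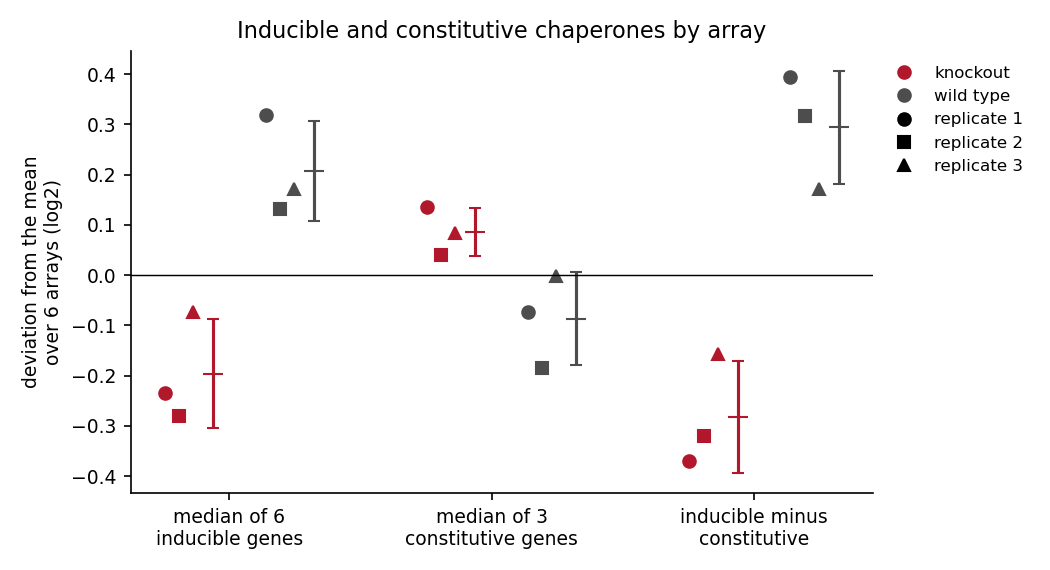
Median deviation from the gene means over the 6 arrays (log2, y axis) for the 6 inducible genes, the 3 constitutive genes and the first minus the second, by array (points), with mean ± SD (bars), knockout in red and wild type in grey. The inducible median is below 0 in all 3 knockout arrays and above 0 in all 3 wild-type arrays. The constitutive median, which follows Hspd1 and Hspe1 and not Hspa8, is reversed.

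In limma's fit over all probe sets, 6 of the 22 chaperone probe sets were called lower in knockout (all 4 of Hspa1a and Hspa1b and both of Hspb1) and 0 higher, while 1.70% of all probe sets were called lower. Since the members were selected on this contrast, nothing is read from that count. Of the 6, 1 was called without knockout replicate 1 (an Hspa1b set), 2 without wild-type replicate 2 (Hspb1 and Hspa1a lost theirs), and 4 without wild-type replicate 1, where Hspb1 lost its calls. The differences themselves kept their sign in each of these fits: Hspa1a lay between -1.37 and -1.07 and the brightest Hspa1b set between -1.38 and -1.16. The check of the genotype was clear on the same arrays: the brighter Fabp5 probe set read 8.27 ± 0.13 in knockout and 14.44 ± 0.03 in wild type (SD, n = 3 each; limma adjusted p = 1.9568e-09).

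Summed markers of neutrophils, fibroblasts, lymphocytes and macrophages were lower in every knockout array than in any wild-type array. The margin was very small for neutrophils and macrophages. Those of dendritic cells were higher in every knockout array, and those of tumour epithelium overlapped. Among all single probe sets, 11.1% did not overlap with knockout lower and 15.8% with knockout higher. Of 10 neutrophil markers measured, 9 had a lower mean in knockout and 0 passed limma's threshold (at an unadjusted p under 0.05, 8 were lower and 1 higher), with a log2 summed intensity of 14.31 to 14.83 in knockout and 14.84 to 15.16 in wild type. All 8 fibroblast markers had a lower mean and 3 fell (Col1a2, Dcn and Col3a1), while 2.05% of all genes were called lower. Their sums were 8.40 to 8.49 in knockout and 8.91 to 9.07 in wild type, and 4 of the 8, Col3a1 among them, lay under the median of all values. Dendritic cell markers had sums of 13.71 to 14.08 in knockout and 13.56 to 13.59 in wild type, with 0 of 9 called (4 higher at an unadjusted p under 0.05). The MHC class II genes H2-Ab1 and H2-Eb1 were the brightest of the 9 and weigh most in that sum. H2-Eb1, Ccr7 and Ciita did not overlap, with knockout higher, while the rest of the 9 overlapped. The macrophage markers summed to 16.256 to 16.366 in knockout and 16.37 to 16.39 in wild type, and all 10 lay above the median of all values. Of them, 7 had a lower mean in knockout and 3 a higher one. By limma's threshold 2 fell, the Fc receptor gene Fcgr1 (-1.13, SE 0.19) and the efferocytosis receptor gene Mertk (-0.46, SE 0.08). Mrc1 and Lyz2 were higher in every knockout array than in any wild-type array, and Fcgr1, Mertk and Msr1 were lower. The 7 epithelial markers of tumour cells gave 8.88 to 9.24 in knockout and 8.90 to 9.12 in wild type. For 5 lymphocyte markers the sums were 7.38 to 7.48 in knockout and 7.54 to 7.60 in wild type. Under the median of all values lay 5 of the 7 epithelial and 4 of the 5 lymphocyte markers, so both sums can say little. The 3′ minus 5′ reading of Actb, a sign of RNA quality, was 0.393 to 0.442 in knockout and 0.342 to 0.366 in wild type, while that of Gapdh overlapped. The part of these shifts in the chaperone differences was not tested, and in RNA from whole cultures fewer cells of a type and less RNA per cell cannot be told apart.

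The wider chaperone network was read from lists grouped by family and compartment. They too were drawn up with earlier results of these data known. The members and these lists were not tested against each other. Of 114 listed genes in 9 groups, 108 had a probe set of their own; 3 rose (2.78%), 0 fell and 105 did not pass limma's threshold. Among all genes, 2.85% were called higher and 2.05% lower, so the share that rose was near the background. The median difference over the 108 genes was 0.04, beside 0.01 over all genes. At an unadjusted p under 0.05 in limma's fit, 17 were higher and 4 lower. The share of all genes under that unadjusted cut was not computed, so no rise or fall is read from counts at it, here or for other lists. The 3 calls were Dnajc9, a J-domain histone chaperone, Pfdn6, a prefoldin subunit that hands actin and tubulin to the TRiC chaperonin, and Bag4, an exchange factor of HSP70. Dnajc9 read 7.51, 7.71 and 7.31 in knockout, against 6.99, 6.89 and 7.06 in wild type (0.53, SE 0.10, limma adjusted p = 0.0307). Pfdn6 rose by 0.34 (SE 0.07, limma adjusted p = 0.0327) and Bag4 by 0.33 (SE 0.08, limma adjusted p = 0.0493). For all 3, the knockout arrays lay above the wild-type arrays. None of the 3 was called without knockout replicate 1 or 2, or without any 1 wild-type array, and 2 were called without knockout replicate 3. Bag4 also lost its call after quantile normalization (limma adjusted p = 0.0663), without _s_at and _x_at probe sets (0.050014) and when its probe sets were averaged (0.0660).

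Other genes that heat shock is known to induce were the nearest comparison for Hspa1a and Hspa1b. Of 13 measured, 0 passed limma's threshold, with 1 higher and 2 lower at an unadjusted p under 0.05 and a median difference of 0.02. Bag3, the co-chaperone that joins HSP70 to autophagy, read 9.40, 9.39 and 9.33 in knockout, against 9.36, 9.33 and 9.36 in wild type (0.02, SE 0.06). Dnaja1, an HSP40 of the cytosol, read 11.80, 11.82 and 11.85 in knockout, against 11.96, 12.02 and 12.02 in wild type (-0.18, SE 0.06, limma adjusted p = 0.147). The smallest p of the group was that of Serpinh1, the collagen chaperone HSP47, which fibroblasts express highly, at -0.35 (SE 0.09, limma adjusted p = 0.0642; 0.0214 with the mean of its probe sets). Its values, 5.37, 5.27 and 5.13 in knockout and 5.51, 5.73 and 5.57 in wild type, lie near the median of all values. Fkbp4, an HSP90-binding immunophilin, lay on the other side at 0.36 (SE 0.09, limma adjusted p = 0.0668). Bag3, Dnaja1 and Fkbp4 were named after their values were seen.

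Among 4 heat-shock factors and regulators, 0 passed (1 higher at an unadjusted p under 0.05, Hsf2 at 0.37, SE 0.14, limma adjusted p = 0.188, with overlapping genotypes; 0.23 without knockout replicate 2 and 0.21 when its probe sets were averaged), and Hsf1 was not analysed here. The 7 other small heat-shock proteins had 0 calls and 1 member at an unadjusted p under 0.05, Hspb6 (0.34, SE 0.14, limma adjusted p = 0.198); 5 of the 7 lay under the median of all values, so most of that family was dim in these cultures. Bag4 was the sole call among 12 other HSP70 and HSP110 genes and their co-chaperones, whose median was 0.10. Dnajc9 was the sole call among 16 other J-domain proteins, with a median of 0.02. The 13 HSP90 co-chaperones had 0 calls, 4 members higher at an unadjusted p under 0.05 and a median of 0.10, with the smallest p for the helicase Ruvbl2 (0.21, SE 0.07, limma adjusted p = 0.113).

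The compartments differed in the sign of their small shifts. In the TRiC chaperonin and prefoldin, which fold actin and tubulin, 13 of 14 genes had a higher mean in knockout (median 0.15; 1 call, Pfdn6). All 13 mitochondrial chaperones and proteases other than Hspd1 and Hspe1 had a higher mean (median 0.12, range 0.02 to 0.17), with 0 calls and 0 at an unadjusted p under 0.05; the smallest p was that of Timm44, which tethers mitochondrial HSP70 to the import channel (0.14, SE 0.06, limma adjusted p = 0.250). All 16 chaperones of the endoplasmic reticulum had a lower mean (median -0.09, range -0.25 to -0.00), with 0 calls and 1 lower at an unadjusted p under 0.05. That gene was Creld2, a disulfide isomerase of the secretory pathway, at -0.25 (SE 0.07, limma adjusted p = 0.0688, between 0.0120 and 0.188 over the alternatives). Over all genes, 53.1% had a higher mean in knockout and 46.9% a lower one. The genes of a compartment vary together across arrays, so these counts describe the 6 arrays and are no test.

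**Figure D4:**
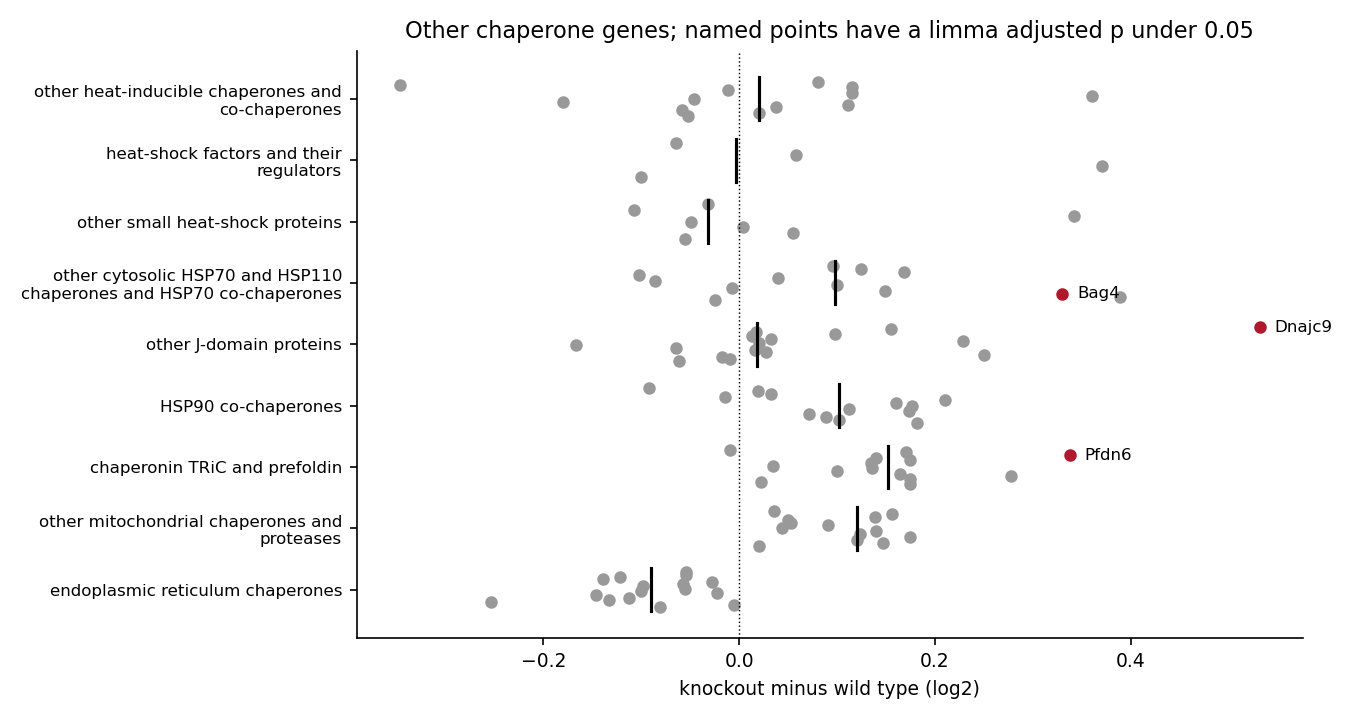
Knockout minus wild type (log2, x axis) for 108 chaperone genes outside the members, 1 point per gene in 9 groups, with the group's median as a black line; red named points passed limma's adjusted p threshold of 0.05. The 3 named genes are on the higher side, and all 16 points of the endoplasmic reticulum group lie below 0.

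Hspa1a had the widest range over the 6 arrays among the inducible genes with the brightest probe set for each (1.70), and its array pattern was compared with that of 11276 genes whose mean lay above the median of all values. Likeness was the root mean square difference between the array deviations from each gene's mean, in log2 units over 6 arrays. The 5 nearest were Fabp3 (0.149), which encodes the heart-type fatty-acid-binding protein, the transporter gene Slco3a1 (0.175), G530011O06Rik (0.177), the interferon-stimulated ADP-ribosyltransferase gene Parp14 (0.180) and Ptges (0.186), which encodes a prostaglandin E synthase. Among the members, Hspa1b was nearest to Hspa1a (0.095), then Hspb1 (0.309), Hsph1 (0.572), Dnajb1 (0.619), Hspa8 (0.636), Hsp90aa1 (0.640), Hspe1 (0.735) and Hspd1 (0.788). All of these members except Hspa1b were farther from Hspa1a than those 5 genes, which were picked as the nearest of 11276. Genes with small differences lie far from Hspa1a by this measure, so nothing is read from that order. Fabp3, the nearest gene, read 8.00, 7.74 and 8.21 in knockout, against 9.14, 9.22 and 8.88 in wild type. All 5 nearest genes fell in knockout by limma's fit (adjusted p of 0.0071 to 0.0284), so the step between genotypes is part of that likeness.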

How the data were processed

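The authors deposited 1 value per probe set and array on the log2 scale, read as such from the range of the values, for 45101 probe sets on 6 Affymetrix arrays (3 knockout, 3 wild type). Per the submitters' processing notes, RMA, GCRMA 2.30.0, affy 1.36.1 and limma 3.14.4 were used, without a role or order, so whether RMA or GCRMA gave these numbers is unknown here. Both normalizations make the arrays' distributions alike (medians 5.60 to 5.64) and differ in how dim values are treated. The 64 control probe sets were left out of the tests. Probe sets were named by the platform table and, for current symbols, a RefSeq table (GRCm38.p6); 34945 probe sets had 1 gene, 932 several and 9160 none. The probe set with the highest mean stood for its gene.

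Knockout minus wild type was fitted with limma 3.58.1 in R 4.3.3 (lmFit, eBayes) over 45037 probe sets, with Benjamini-Hochberg adjustment and a threshold of 0.05; SEs are limma's. The fit was tested on simulated data. The number of arrays limits the precision of every value, and permuting 3 against 3 arrays cannot give a two-sided p under 0.1. The members and the lists were chosen with earlier results of these data known. Named genes were the members, Fabp5 and the 5 nearest patterns. From each list, up to 4 called genes were named or, with none called, the one with the smallest p. Bag3, Dnaja1, Fkbp4 and the single markers were named outside that rule, after their values were seen. Alternatives were other normalizations, filters, variance models, array weights, a block for the replicate number, other choices of probe set and leaving out each array. Figures were drawn with matplotlib 3.10.9.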

Additional observations from a re-analysis of the deposited data

How the results depend on the processing

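The median difference of the inducible genes (-0.39), that of the constitutive genes (0.18) and the inducible minus constitutive value (-0.58) moved by less than the spread between replicates under every alternative run on them. These were quantile normalization, median centring, array weights, leaving out _s_at and _x_at probe sets, averaging a gene's probe sets and leaving out each array. None of them counted Hspa1a and Hspa1b once. The count of called probe sets, 1691, was 2692 with above-median probe sets only, 3126 with trend and robust settings and 92 with the replicate number as a block, and lay between 40 and 1360 when 1 array was left out. The 3 calls among other chaperone genes became 6 with above-median probe sets only, 9 with trend and robust settings, 6 when a gene's probe sets were averaged (without Bag4) and 0 with the replicate block, and lay between 0 and 2 when 1 array was left out. Of the 22 chaperone probe sets, the 6 calls became 3 under the replicate block (Hspa1b and Hspb1), and trend and robust settings added Hspd1 as higher. The cause of these shifts was not tested. Same-numbered arrays did not deviate together (correlations of their deviations of -0.06, -0.04 and -0.13), so the numbers were not taken as pairs, and a call lost under the block is no sign of a smaller difference. Low signal limits Hsp90aa1's 1441827_x_at set and most small heat-shock proteins. Quantile normalization called 686 probe sets higher and 817 lower, median centring 1155 and 762, against 927 and 764 as deposited.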
